A study of Mus musculus with 16 samples.

Results

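The 10 genes described here encode scavenger receptors and receptors grouped with them, namely Marco, Msr1, Mrc1, Cd163, Stab1, Colec12, Scarb1, Scarb2, Olr1 and Cd68. They were taken as a list of named genes, with no threshold on their values, and each was found through the only symbol that the platform annotation gave its probe set. All 10 were measured, by 1 probe set each, among 22180 genes in all. Expression was read on 16 whole-transcript arrays, 4 in each of 4 groups, from dendritic cells grown out of bone marrow of male C57/B6 mice for 10 days in GM-CSF at 20 ng/ml. The mock group (n = 4) and the group given PA (n = 4) received no IMQ. PA, read here as the saturated fatty acid palmitic acid from knowledge of the study, was given at 0.5 mM, 6 parts to 1 of bovine serum albumin. The IMQ group (n = 4) received IMQ, read here as imiquimod, which activates TLR7, an endosomal sensor of RNA, at a dose that the labels give as 3 uM in one place and as 3 ug/ml in another. The last group (n = 4) received IMQ and PA together. All treatments lasted 24 h, and the labels do not say whether mock cells were given albumin, how old the mice were, or which mice or cultures stand behind the replicates, which the titles call biological. The p-values measure the spread between these arrays. Cultures of this kind hold dendritic and macrophage-like cells together, so fewer cells of a type and less RNA per cell cannot be told apart.

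Scavenger receptors are surface or lysosomal proteins that bind modified lipoproteins, microbes, dying cells and other polyanionic or glycosylated ligands, and most of them carry that cargo into endosomes. They are grouped into classes by structure rather than by descent. Class A receptors (Msr1, Marco, Colec12) are trimers with a collagen-like stalk, class B receptors (Scarb1, Scarb2, and Cd36 outside the 10) cross the membrane at both ends, and the others include lectin-like receptors (Mrc1, Olr1), the stabilins, the haemoglobin receptor Cd163 and the lysosomal mucin-like protein Cd68. In myeloid cells they serve clearance and antigen uptake, and several are used as markers of macrophage states.

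The promoter table of RefSeq (GRCm38.p6) held 7 of the 10 genes, all but Msr1, Scarb1 and Colec12. The 250 bases before the transcript start used in that table are shown for 4 of them, Marco, which rose with IMQ, and Mrc1, Stab1 and Cd68, which fell. They were picked after the search, since each holds a letter match for PU.1 (encoded by Spi1), a transcription factor of myeloid cells. Capitals mark GAGGAA (PU.1) and TGACTCA (AP-1) on either strand, and the sequences run 5′ to 3′ along the gene. The windows are chr1:120505025-120505274, minus strand, for Marco, chr2:14229164-14229413, plus strand, for Mrc1, chr14:31168642-31168891, minus strand, for Stab1 and chr11:69666171-69666420, minus strand, for Cd68.
Marco: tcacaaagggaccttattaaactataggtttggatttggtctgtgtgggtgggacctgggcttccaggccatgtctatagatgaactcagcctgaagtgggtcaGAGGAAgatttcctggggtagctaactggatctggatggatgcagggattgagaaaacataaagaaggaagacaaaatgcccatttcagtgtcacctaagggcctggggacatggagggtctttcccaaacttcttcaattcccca
Mrc1: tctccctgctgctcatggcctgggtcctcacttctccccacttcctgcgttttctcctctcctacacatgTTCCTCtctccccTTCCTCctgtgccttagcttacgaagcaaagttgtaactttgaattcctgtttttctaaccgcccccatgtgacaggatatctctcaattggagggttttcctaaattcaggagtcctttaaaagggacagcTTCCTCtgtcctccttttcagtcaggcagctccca
Stab1: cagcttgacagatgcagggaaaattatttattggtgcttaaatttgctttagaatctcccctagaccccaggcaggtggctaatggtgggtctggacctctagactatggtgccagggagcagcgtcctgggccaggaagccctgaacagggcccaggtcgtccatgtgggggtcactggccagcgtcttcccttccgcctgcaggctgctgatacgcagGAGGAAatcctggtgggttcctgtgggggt
Cd68: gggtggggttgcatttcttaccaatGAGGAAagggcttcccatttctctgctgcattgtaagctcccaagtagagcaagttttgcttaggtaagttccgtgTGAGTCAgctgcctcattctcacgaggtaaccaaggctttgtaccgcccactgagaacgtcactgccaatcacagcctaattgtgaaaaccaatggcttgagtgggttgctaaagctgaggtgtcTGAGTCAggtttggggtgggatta
Over the 7 windows, PU.1 letters were in 5, those shown and that of Olr1, and not in those of Cd163 and Scarb2. They were in 23.3% of the 32851 windows of the whole table. Mrc1 held 3 such matches, beginning 180, 167 and 35 bases before the start, and Stab1 held 1 at 30 bases. AP-1 letters were in 2 of the 7, Olr1 at 60 bases and Cd68 at 149 and 24 bases, and in 4.46% of all windows. The start used for Olr1 lies inside the gene's RefSeq span, which covers 185 of the 250 bases, and the spans of Stab1 and Cd163 cover 10 and 15 bases of theirs. Of the 9 other motifs searched on both strands, the windows of Marco, Olr1, Stab1 and Cd163 held none, while Mrc1 and Cd68 held a GC box (GGGCGG, 32.7% of all windows). Scarb2 held a GC box, the core of the antioxidant response element (TGACNNNGC, 10.2%) and an NF-kB match (3.90%). The remaining motifs, absent from all 7 windows, were CRE (TGACGTCA, 1.55% of all windows), the interferon-stimulated response element (2.98%), a TFEB-type E-box (TCACGTG, 3.13%), C/EBP (TTGCGCAA, 0.164%), STAT (TTCNNNGAA, 7.02%) and the TATA box (TATAAA, 12.4%). No motif overlapped another in the windows shown, and a match is a run of letters, not a shown binding site.

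Values are log2 RMA values. Levels are given as mean ± SD over 4 arrays, and changes as differences of log2 values ± the standard error of a limma fit to all 22180 genes, and a call means an adjusted p (Benjamini-Hochberg) under 0.05. Arrays within a group correlated at 0.994 to 0.996 across genes, and 0 pairs were identical. Arrays without IMQ differed in Il6, a cytokine that IMQ raises. Mock replicates 1 to 3 (7.57, 7.90 and 7.71) and PA replicates 3 and 4 (7.43 and 8.22) were above 5. Mock replicate 4 (4.32) and PA replicates 1 and 2 (4.12 and 4.0) were not, and every array with IMQ was at 11.9 or more. The called changes of the 10 genes with PA alone are given below with and without the 5 arrays above 5. The interactions are given without them as a range. Single changes in the other comparisons with mock or PA are given below with all arrays. Without the 5, which left 1 mock and 2 PA arrays, the change with IMQ alone was 3.30 for Marco and -3.61 for Mrc1. It was -2.59 for Colec12 and 1.32 for Olr1. Of the defining markers, 9 of 9 measured for dendritic cells and 8 of 8 for macrophages lay above the level of 4.93 in every group. Genes under that level are called dim here. It was set at the 95th percentile of mean values among 1447 genes of odorant, taste and similar receptors, most of which these cells are not known to use. Olfr111, which belongs to that set, changed by -3.52 with IMQ. Of the lymphocyte markers 5 of 7 were below it in all groups, among them Cd3e and Cd79a, as were 5 of 6 mast cell markers. The summed intensity of the macrophage markers was 19775 to 20857 in mock, 20545 to 21292 with PA, 24103 to 24733 with IMQ and 21975 to 23143 with both. That of the dendritic cell markers was 9614 to 9786, 9066 to 9532, 8056 to 8360 and 8812 to 8951 in the same order. Of the 8 macrophage markers 5 fell with IMQ (17.9% of all genes) and 3 rose (17%). Among those that rose were Cd14 (10.49 in mock, 12.33 with IMQ) and Adgre1 (10.09 and 11.64). The part of these shifts in the results below was not tested.

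With IMQ alone, 8 of the 10 genes changed, where 34.8% of all genes were called. Of these, 2 rose (17% of all genes) and 6 fell (17.9%). A called change of 1 or more on the log2 scale was seen in 4 of the 10 and in 5.13% of all genes, and the median absolute change was 0.50 against 0.16 over all genes. Adding PA to IMQ changed 8 of 10, where 21.1% of all genes were called, with a median absolute change of 0.66 against 0.12. These were 4 rises (11.6% of all genes) and 4 falls (9.44%), and 3 of the 8 reached 1 (1.15%). PA alone changed 4 of 10, where 1.49% of all genes were called, with 3 rises (1.05%), 1 fall (0.442%) and 0 changes of 1 or more (0.0361%). That count was 2 when only the mock and PA arrays were fitted, where 150 of 22180 genes were called. Leaving out the 5 arrays with Il6 above 5 left 1 mock and 2 PA arrays. There the 4 changes kept their direction but lost their calls, as did most called genes of the whole set.

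IMQ given to PA-treated cells changed all 10 (35.3% of all genes), with 2 rises (16.8%), 8 falls (18.5%) and 6 changes of 1 or more (5.62%). The combination against mock changed 9 (36.5%), with 2 rises (18.4%), 7 falls (18.1%) and 5 changes of 1 or more (5.69%). The falls in both comparisons include Cd163, which was dim in all groups and cannot be read as a change in expression. Comparisons that use the same mock, PA or IMQ arrays are not independent of each other. Replicates of the groups compared did not overlap for 5 genes with PA alone (9.92% of all genes), 8 with IMQ alone (34.2%), 9 with PA added to IMQ (23.5%), 9 with IMQ added to PA (35.7%) and 10, the dim Cd163 among them, with both against mock (35.3%).

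**Figure D1:**
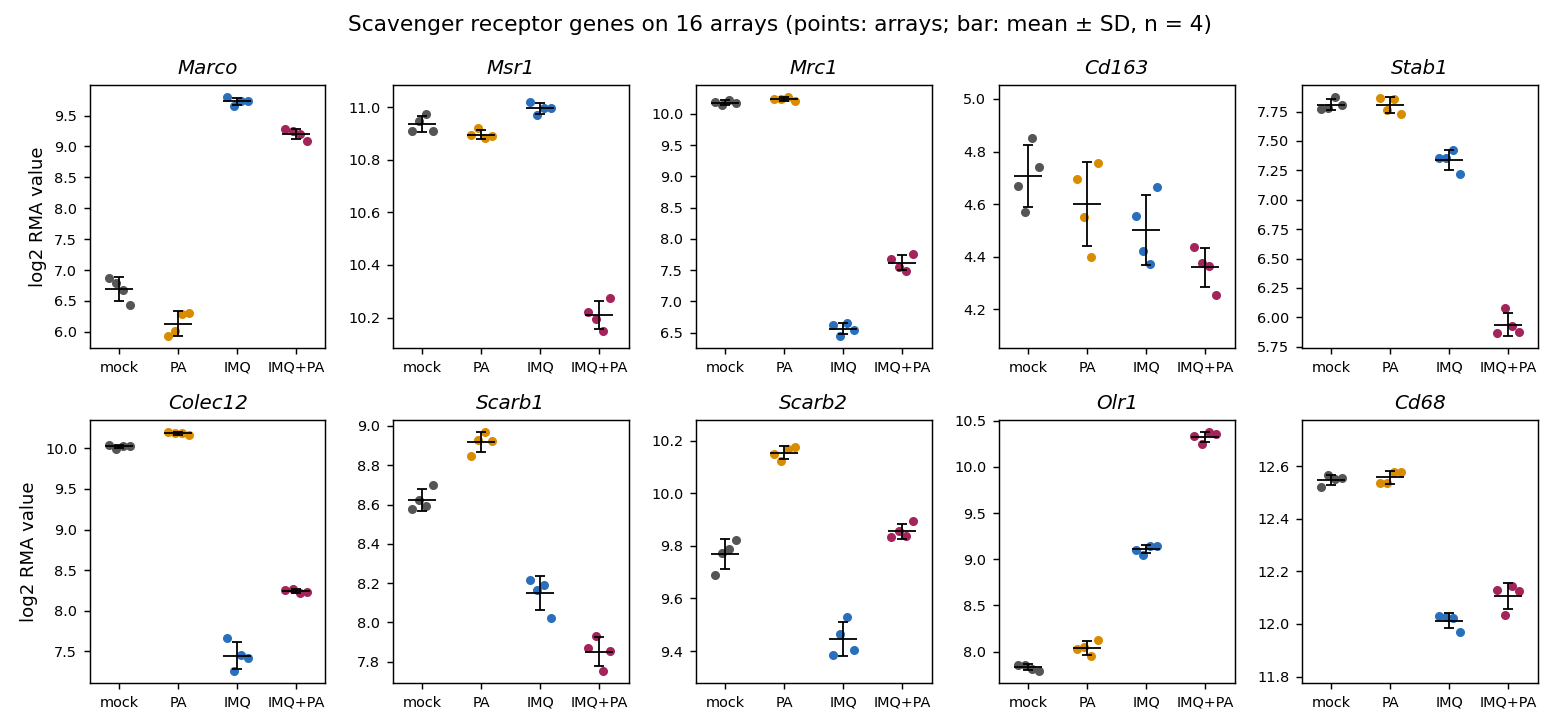
Log2 RMA value (y axis) of each of the 10 genes on the 16 arrays, by group (x axis), with points for arrays and black bars for the mean ± SD (n = 4). The y axes differ between panels and do not start at 0. The Mrc1 arrays with IMQ sit between 6.44 and 6.66 and those with both agents between 7.48 and 7.75, all below the mock arrays, while Stab1 is lowest with both agents, between 5.86 and 6.08.

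Marco, a class A receptor that binds bacteria and mineral or polystyrene particles, was the gene of the 10 with the highest rise. It read 6.87, 6.79, 6.67 and 6.43 in mock replicates 1 to 4 and 9.80, 9.66, 9.73 and 9.74 with IMQ. The IMQ arrays were all far above the mock arrays, by 3.04 ± 0.10 (8.23-fold, adjusted p = 7.77e-13). PA lowered it in both settings. The PA arrays read 5.93, 6.01, 6.29 and 6.31, all below the lowest mock array, a change of -0.56 ± 0.10 (1.47-fold lower, adjusted p = 0.0084). With IMQ and PA it read 9.28, 9.24, 9.20 and 9.09, below every IMQ array, a change of -0.53 ± 0.10 (1.44-fold lower, adjusted p = 0.000889). The change with PA in cells given IMQ exceeded that without IMQ by 0.03 on the log2 scale (95% interval -0.27 to 0.33, adjusted p = 0.933), so the PA effects with and without IMQ were not distinguishable. Marco rose by 3.07 ± 0.10 when IMQ was added to PA.

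Within the mock and within the PA group, the arrays with low Il6 had the lowest Marco. The mock array with Il6 at 4.32 had the lowest Marco of its group (6.43), and the PA arrays with Il6 at 4.12 and 4.0 had the lowest of theirs (5.93 and 6.01). Each PA array was below each mock array. The closest were PA replicate 4 (6.31, with Il6 at 8.22) and mock replicate 4 (6.43, with Il6 at 4.32). Without the 5 arrays over the Il6 limit, which left 1 mock and 2 PA arrays with the lone mock array taken to vary like the other groups, the change was -0.46 and lost its call (adjusted p = 0.225). It was also lost when only the mock and PA arrays were fitted (-0.56, adjusted p = 0.0997). The part of the signal behind Il6 in the Marco result was not tested.

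**Figure D2:**
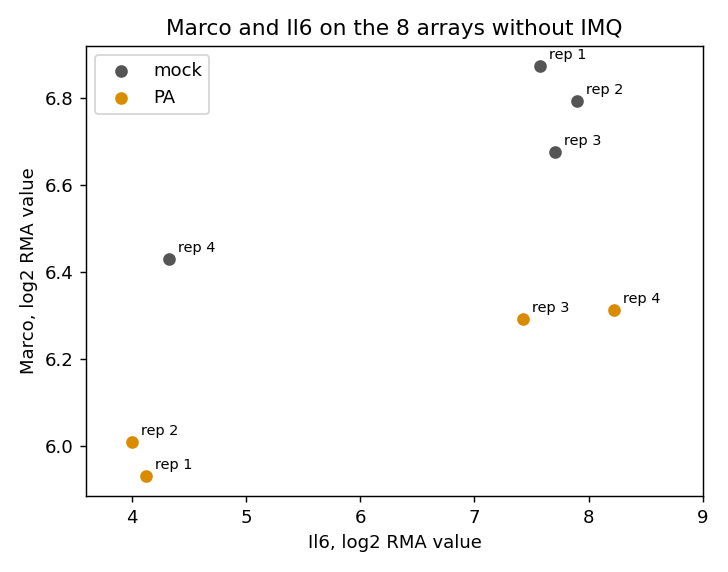
Marco (y axis) against Il6 (x axis), both as log2 RMA values, on the 4 mock and 4 PA arrays, with the replicate number beside each point. PA arrays lie below the mock arrays, from 5.93 to 6.31 against 6.43 to 6.87, and within each group the arrays with low Il6 have the lowest Marco.

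Msr1, the class A receptor that takes up acetylated and oxidised low-density lipoprotein, did not pass the test with either agent alone and fell with both together. It read 10.91, 10.95, 10.97 and 10.91 in mock, 10.89, 10.92, 10.88 and 10.89 with PA, and 11.02, 10.97, 10.995 and 10.997 with IMQ. The mock arrays overlapped both of the other groups. Under both agents it read 10.22, 10.20, 10.15 and 10.27, below every other array. The change against IMQ alone was -0.79 ± 0.04 (1.72-fold lower, adjusted p = 7.82e-10), and the change with IMQ in PA-treated cells was -0.69 ± 0.04. The PA change in cells given IMQ less the PA change in cells without it, the interaction, was -0.75 ± 0.06 (adjusted p = 2.06e-07). PA alone gave -0.04 (95% interval -0.12 to 0.04) and IMQ alone 0.06 (-0.02 to 0.14).

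Colec12, a class A receptor with a C-type lectin head that binds microbial sugars and oxidised lipoprotein, moved the other way to Marco. It read 10.04, 10.00, 10.03 and 10.03 in mock and 7.66, 7.26, 7.45 and 7.41 with IMQ. Every IMQ array was over 2 units below every mock array, a change of -2.58 ± 0.06 (5.98-fold lower, adjusted p = 5.96e-14). Under both agents it read 8.26, 8.27, 8.22 and 8.23, between the IMQ and the mock arrays, 0.80 ± 0.06 above IMQ alone (1.74-fold, adjusted p = 1.21e-07). With PA alone it read 10.21, 10.19, 10.18 and 10.17, above all mock arrays, but the change of 0.16 ± 0.06 did not pass the test (adjusted p = 0.255). The interaction was 0.64 ± 0.09 (adjusted p = 0.000126).

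Mrc1, the mannose receptor (CD206), an endocytic lectin for mannose-bearing glycoproteins, fell the most of the 10. It read 10.19, 10.14, 10.22 and 10.17 in mock and 6.61, 6.44, 6.66 and 6.54 with IMQ. The change of -3.62 ± 0.06 was 12.3-fold lower, and its p was the lowest of all 22180 genes in that comparison (adjusted p = 7.45e-15). PA alone left it at 10.23, 10.24, 10.27 and 10.20, which overlap the mock arrays (0.05 ± 0.06, adjusted p = 0.75). With IMQ and PA it read 7.68, 7.55, 7.48 and 7.75, above every IMQ array and below every mock array. PA added to IMQ raised it by 1.05 ± 0.06 (2.07-fold, adjusted p = 3.31e-09), so that the fall with IMQ was 6.14-fold in PA-treated cells. The interaction was 1.00 ± 0.09 (adjusted p = 9.10e-07). The order of levels was PA, mock, IMQ with PA, IMQ, and only PA and mock overlapped. Of the other 3 genes of the mannose receptor family, Ly75 (0.74 ± 0.06) and Mrc2 (0.39) rose with IMQ, while Pla2r1, dim in all groups, read 0.17 and was not called. With PA added to IMQ, Ly75 (0.14) and Mrc2 (-0.28) were not called, and Pla2r1 is too dim to be read.

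Olr1, or LOX-1, a lectin-like receptor for oxidised low-density lipoprotein, rose with IMQ and rose again with PA. It read 7.86, 7.85, 7.81 and 7.79 in mock and 9.10, 9.05, 9.15 and 9.15 with IMQ, a change of 1.28 ± 0.05 (2.43-fold, adjusted p = 3.78e-12). Cells given both agents read 10.33, 10.25, 10.37 and 10.35, above all IMQ arrays by 1.22 ± 0.05 (2.32-fold, adjusted p = 5.70e-11). With PA alone it read 8.03, 8.05, 7.95 and 8.13, above all mock arrays by 0.21 ± 0.05 (adjusted p = 0.0389). None of the 4 groups overlapped a neighbour in the order IMQ with PA, IMQ, PA, mock. The interaction was 1.01 ± 0.07 (adjusted p = 6.81e-08), and the combination stood 5.65-fold above mock. The rise with PA alone was near the threshold. It lost its call with repeated quantile normalization (0.16, adjusted p = 0.169), with only the mock and PA arrays in the fit (adjusted p = 0.148) and without most single arrays, and without the 5 arrays over the Il6 limit it was 0.25 (adjusted p = 0.508).

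Stab1, or stabilin-1, an endocytic receptor of macrophages and sinusoidal endothelium, had the largest fall of the 10 with PA added to IMQ. It read 7.77, 7.78, 7.87 and 7.81 in mock, 7.87, 7.76, 7.86 and 7.73 with PA, and 7.35, 7.35, 7.42 and 7.22 with IMQ. Mock and PA overlapped, and the IMQ arrays lay below both, by -0.47 ± 0.06 against mock (1.39-fold lower, adjusted p = 7.31e-06). With IMQ and PA it read 5.86, 6.08, 5.93 and 5.88, below every other array, a change of -1.40 ± 0.06 against IMQ alone (2.64-fold lower, adjusted p = 1.22e-10). The change with PA alone was -0.003 (95% interval -0.13 to 0.12). The interaction was -1.40 ± 0.08 (adjusted p = 2.41e-08), the 33rd lowest of 22180 genes. Stab2, its paralog, lay below 4.93 in all groups.

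Cd163, the macrophage receptor for haemoglobin bound to haptoglobin, was dim throughout. Its group means were 4.71, 4.60, 4.50 and 4.36 in mock, PA, IMQ and IMQ with PA, all under 4.93, so its changes are not a measure of its expression. It was the only 1 of the 10 that a filter on dim genes removed. The called changes were -0.35 ± 0.09 for both agents against mock (adjusted p = 0.00411) and -0.24 ± 0.09 for IMQ added to PA (adjusted p = 0.04), and the latter replicates overlapped. Of the genes that handle haemoglobin and haem, 3 of 11 measured rose with IMQ (17% of all genes) and 6 fell (17.9%), with a median of -0.18. With PA added to IMQ 5 rose (11.6% of all genes) and 2 fell (9.44%), with a median of -0.01. Hp, which encodes haptoglobin, rose with IMQ (1.77 ± 0.05) and fell with PA added to it (-1.05 ± 0.05). The iron exporter Slc40a1 rose by 1.92 ± 0.11 with PA added to IMQ, the haem exporter Flvcr1 fell with IMQ (-1.23), and the haem oxygenase Hmox1 rose by 0.44 ± 0.04 in each of these comparisons.

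Scarb1, the receptor for high-density lipoprotein that moves cholesterol esters across the membrane, went up with PA alone and down with PA in the presence of IMQ. It read 8.58, 8.62, 8.59 and 8.70 in mock and 8.85, 8.93, 8.97 and 8.92 with PA, a change of 0.29 ± 0.05 (1.23-fold, adjusted p = 0.0114). With IMQ it read 8.22, 8.17, 8.19 and 8.02, below mock by -0.47 ± 0.05 (1.39-fold lower, adjusted p = 2.63e-06). Cells given both agents read 7.87, 7.93, 7.75 and 7.86, below all IMQ arrays by -0.30 ± 0.05 (1.23-fold lower, adjusted p = 0.000737). The 4 groups did not overlap, in the order PA, mock, IMQ, IMQ with PA. The interaction was -0.59 ± 0.08 (adjusted p = 6.05e-05), the only 1 of the 10 in which the PA effects were called in opposite directions. Without the 5 arrays over the Il6 limit the rise with PA alone was 0.19 and not called (adjusted p = 0.761).

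Scarb2, or LIMP-2, an abundant membrane protein of lysosomes, rose with PA both with and without IMQ. It read 9.69, 9.77, 9.79 and 9.82 in mock and 10.15, 10.12, 10.17 and 10.17 with PA, a change of 0.39 ± 0.04 (1.31-fold, adjusted p = 0.000235). It read 9.38, 9.46, 9.53 and 9.40 with IMQ and 9.83, 9.86, 9.84 and 9.89 with both, a change of 0.41 ± 0.04 (1.33-fold, adjusted p = 4.47e-06). IMQ lowered it by -0.32 ± 0.04 without PA and by -0.30 ± 0.04 with PA. The interaction was 0.02 (95% interval -0.11 to 0.16, adjusted p = 0.861), and the combination did not differ from mock by the test (0.09 ± 0.04, adjusted p = 0.16), although its arrays lay just above the mock arrays. Without the 5 arrays over the Il6 limit, the rise with PA alone was 0.31 and not called (adjusted p = 0.383).

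Cd68, or macrosialin, a heavily glycosylated protein of late endosomes and lysosomes, fell with IMQ and was little changed by PA. It read 12.52, 12.57, 12.55 and 12.55 in mock and 12.03, 12.03, 12.02 and 11.97 with IMQ, a change of -0.53 ± 0.04 (1.45-fold lower, adjusted p = 1.31e-08). With PA it read 12.54, 12.54, 12.58 and 12.58, which overlap the mock arrays (0.01 ± 0.04, adjusted p = 0.944). Cells given both agents read 12.13, 12.03, 12.14 and 12.12, above the IMQ arrays, at a change of 0.09 ± 0.04 that did not pass the test (adjusted p = 0.108) but did with a variance trend and robust moderation (adjusted p = 0.00232), with repeated quantile normalization (0.14, adjusted p = 0.0262) and with dim genes left out (adjusted p = 0.0438). The highest value of any probe set on these arrays was 13.5. Of the related LAMP genes, Lamp1 (-0.35 ± 0.04) and Lamp2 (-0.14 ± 0.04) fell with IMQ, and Lamp1 fell again with PA added to it (-0.27 ± 0.04). Lamp3 and Lamp5 lay below 4.93 in all groups.

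The PA effects with and without IMQ differed for 6 of the 10 genes, where the interaction was called for 13.6% of all genes. It was above 0 for Olr1, Mrc1 and Colec12 (6.58% of all genes) and below 0 for Stab1, Msr1 and Scarb1 (7.01%), and 3 of the 6 had a size of 1 or more (1.04%). The 4 others were Marco, Scarb2, Cd68 and Cd163. Without the 5 arrays over the Il6 limit, which left 1 mock and 2 PA arrays, all 6 kept their direction, from -1.41 for Stab1 to 0.99 for Mrc1. The median interaction over the 10 was 0.03, against -0.01 over all genes.

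**Figure D3:**
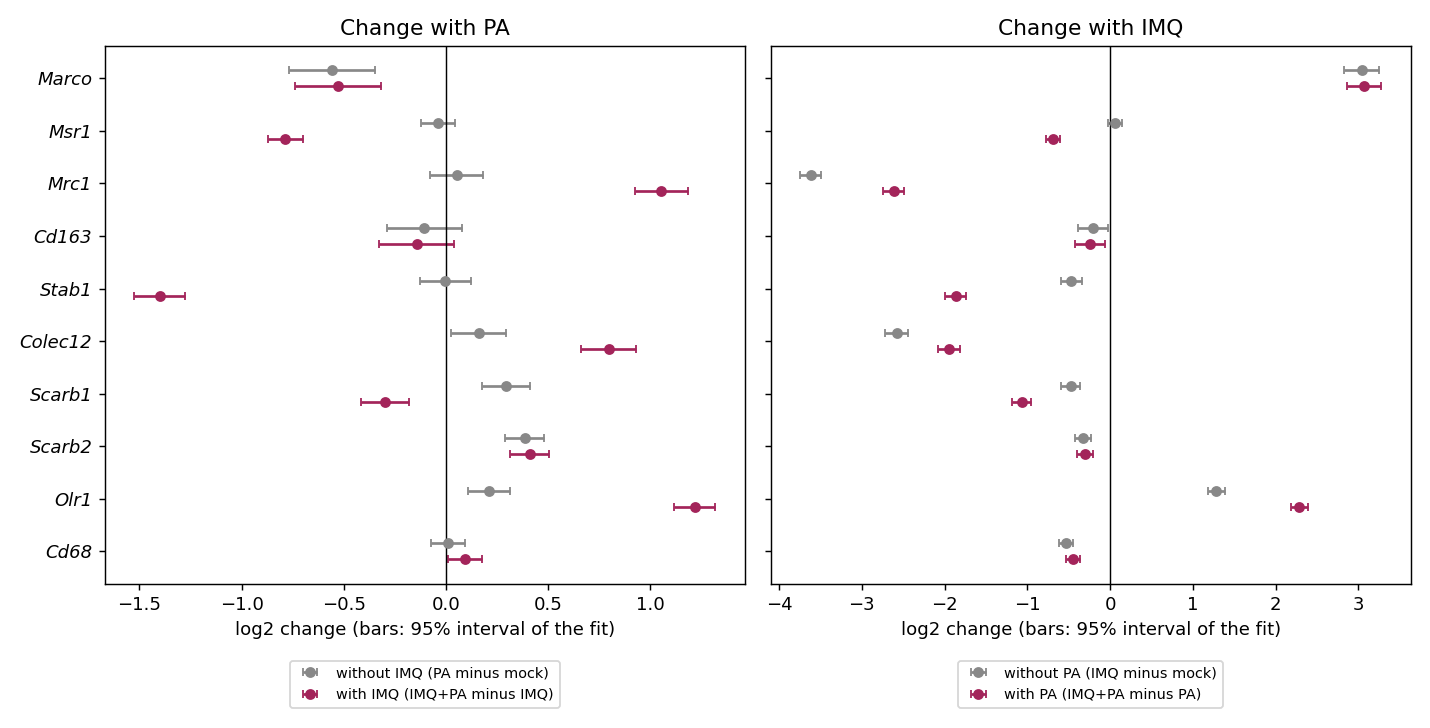
Log2 change (x axis) of each gene (y axis) with PA, without and with IMQ (left), and with IMQ, without and with PA (right), with bars for the 95% interval of the limma fit on 16 arrays. With PA added to IMQ the changes run from -1.40 for Stab1 to 1.22 for Olr1, while with PA alone they run from -0.56 for Marco to 0.39 for Scarb2.

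For the 6 genes with a change of at least 1, the likest other genes were found by the root mean square difference of centred log2 values over the 16 arrays, a description without a test. Marco was nearest to Socs1 (0.16), Socs3 (0.16) and Ccl7 (0.19), where Socs1 and Socs3 encode feedback inhibitors of cytokine signalling and Ccl7 a monocyte chemokine. Mrc1 was nearest to Cd300lb (0.14), an activating receptor of myeloid cells, followed by Tmem154 (0.23) and Olfr111 (0.25). Cd300lb changed by -3.66 with IMQ and by 0.95 with PA added to it. Colec12 was nearest to Ckb (0.16), a creatine kinase, Papss2 (0.16), which makes the sulfate donor PAPS, and Qpct (0.18), a glutaminyl cyclase. Mrc1 and Colec12 were 0.45 apart on the same measure, the smallest distance of either to another of the 10. Stab1 was nearest to the transcription factor Lyl1 (0.09), the Src-family kinase Fgr (0.11) and Ms4a14 (0.12). Fgr changed by -0.27 with IMQ and by -1.60 with PA added to it. Olr1 was nearest to Osgin2 (0.11), the costimulatory ligand Cd86 (0.12) and Tmtc2 (0.14), and Scarb1 to the glycolytic enzyme Aldoc (0.08), the transcription factor Nfe2 (0.10) and Dmxl2 (0.10).

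Of 16 other scavenger receptor genes listed, 15 were measured and 4 of these were dim in all groups. With IMQ 4 rose and 2 fell (median 0.11), with PA added to IMQ 2 rose and 3 fell (median -0.10), and with PA alone 1 rose. The shares called over all genes were 34.8%, 21.1% and 1.49% in these comparisons, for this list and those that follow. Cd36, the class B receptor that imports long-chain fatty acids, read 11.05 to 11.07 in mock, 11.58 to 11.60 with PA, 9.92 to 10.01 with IMQ and 10.85 to 10.97 with both. It rose by 0.53 ± 0.04 with PA alone and by 0.94 ± 0.04 with PA added to IMQ, and fell with IMQ alone (-1.10 ± 0.04). Its interaction was 0.41 ± 0.06 (adjusted p = 8.51e-05). The class B receptors Cd36 and Scarb2 thus rose with PA in both settings, and Scarb1 only without IMQ. Cd14, the co-receptor for lipopolysaccharide, had the highest rise with IMQ (1.84 ± 0.08), and Lrp1, a large endocytic receptor of the low-density lipoprotein receptor family, the lowest change (-1.13 ± 0.04). Scarf1, an endocytic receptor for modified lipoprotein, rose with IMQ (1.12 ± 0.06) and fell when PA was added (-0.39 ± 0.06).

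**Figure D4:**
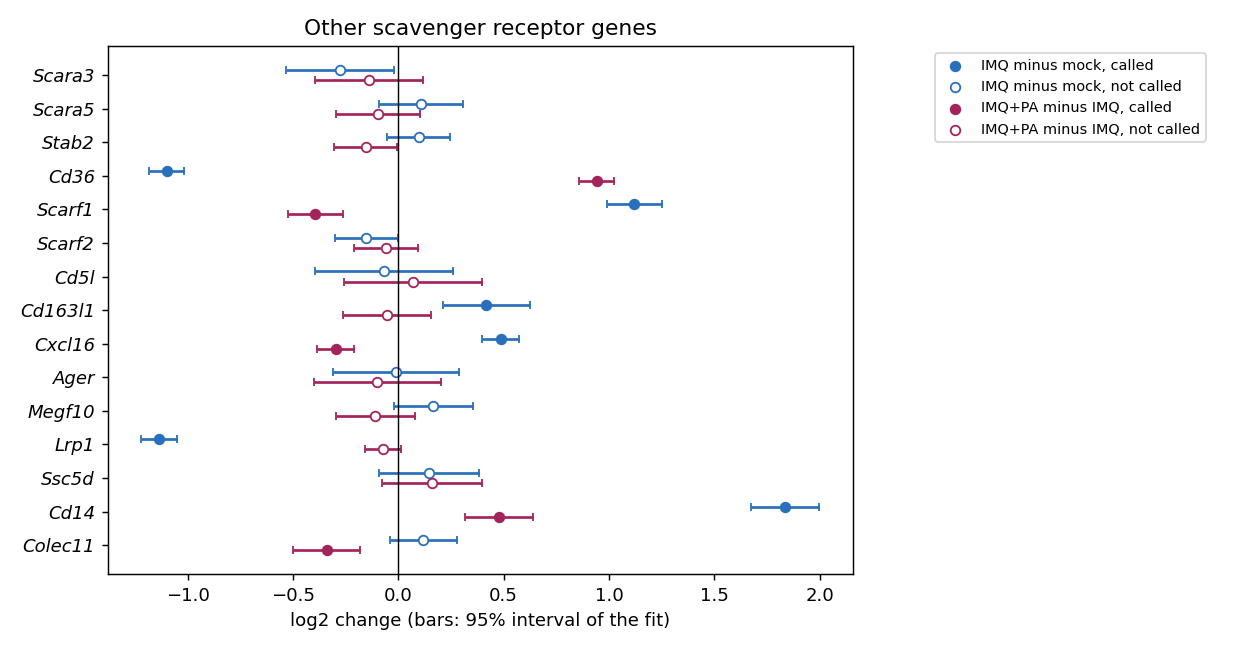
Log2 change (x axis) of 15 scavenger receptor genes outside the 10 (y axis) with IMQ alone and with PA added to IMQ, with filled points for called genes, open points for the others, and bars for the 95% interval. Cd36 lies at -1.10 with IMQ and at 0.94 with PA added to it, and Cd14 at 1.84 and 0.48.

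The uptake of dying cells, a task that several scavenger receptors share, was covered by 17 other genes. With IMQ 12 of them fell and 1 rose (median -1.17), and with PA added to IMQ 4 rose and 4 fell (median 0.06). Gas6, the bridging ligand of the TAM receptors, fell the most with IMQ (-3.00 ± 0.10), and the integrin subunit Itgav was the gene that rose (0.55 ± 0.04). With PA added to IMQ, Itgav rose by 0.90 ± 0.04 and the TAM receptor Axl fell (-0.49 ± 0.04). Of 16 measured genes of lysosomal enzymes and their regulators, 11 fell and 1 rose with IMQ (median -0.27), and 6 fell and 3 rose with PA added to it (median -0.03). The transcription factor Tfeb, which drives lysosomal genes, fell with IMQ (-0.80), while the sialidase Neu1 rose (0.15 ± 0.04). With PA added to IMQ the proton pump subunit Atp6v1h rose (0.24 ± 0.05) and the transcription factor Mitf fell (-0.37 ± 0.05).

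Of 10 measured genes of sterol transport, which are the setting of Scarb1, 5 fell and 3 rose with IMQ (median -0.31), and 5 fell and 2 rose with PA added to it (median -0.17). The cholesterol exporter Abcg1 fell with IMQ (-0.72 ± 0.04) and again with PA added (-0.85 ± 0.04), whereas Abca1, which loads lipid-poor apolipoprotein, rose with IMQ (0.89 ± 0.04) and did not change by the test with PA added (0.02 ± 0.04). The lysosomal lipase Lipa had the lowest change with IMQ (-1.43) and rose with PA added (0.23), and the caveolar protein Cav1 had the highest with IMQ (1.06 ± 0.05). In 16 genes of the macrophage state that interleukin 4 induces, of which Mrc1 is a marker, 9 fell and 6 rose with IMQ (median -0.30). With PA added 5 rose and 2 fell (median 0.03). Arginase (Arg1) rose with IMQ (1.67 ± 0.09) while the nuclear receptor Pparg fell (-2.72 ± 0.08). With PA added the transglutaminase Tgm2 rose (1.07 ± 0.05) and the signal transducer Stat6 fell (-0.21). The members of this group were split in direction.

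All 12 genes of the TLR response list rose with IMQ (median 2.58), from Ccl5 (1.45) to Il6 (5.03 ± 0.88). With PA added 1 was called higher, Il12b (0.55), and 2 lower, with Irak3 the lower (-0.68). Ptgs2 (12.33 to 12.45 with IMQ, 12.93 to 13.00 with both) and Il6 (11.86 to 12.02, 12.25 to 12.27) did not overlap either. They were not called in a fit that takes in their wide spread in mock (SD 1.74 and 1.71). Socs3 and Acod1 were lower without overlap and not called. Among 13 measured transcription factors of these cells, 5 rose and 6 fell with IMQ (median 0.03), and 3 rose and 3 fell with PA added (median -0.02). Cebpb (0.85) and Pparg had the highest and the lowest change with IMQ. Spi1, whose product is PU.1, fell with IMQ (-0.27 ± 0.06) and fell again with PA added (-0.49 ± 0.06), which was the lowest change of the list. Irf4 rose with PA added (0.45 ± 0.06), and Nfe2l2, the antioxidant regulator NRF2, fell with IMQ (-0.35 ± 0.04) and rose with PA added (0.20 ± 0.04).

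Markers of cells that also carry these receptors were read beside them. Of the macrophage markers without the 10, 3 of 8 rose and 5 fell with IMQ (median -0.16), and 2 rose and 5 fell with PA added (median -0.42). Cd14 (1.84) and the TAM receptor Mertk (-2.08 ± 0.06) had the highest and the lowest change with IMQ. With PA added Mertk rose (0.50 ± 0.06) and the Fc receptor Fcgr1 fell the most (-0.89). Of 9 dendritic cell markers 4 rose, led by Ccr7 (1.02), and 5 fell, with Itgax the lowest (-1.71), and with PA added 2 rose and 2 fell (median 0.05). Sinusoidal endothelium expresses Stab1 and Mrc1. Among the endothelial markers Stab2, Tek and Emcn were below 4.93 in all groups, and Lyve1 was above it only with both agents (5.32). Cdh5, Pecam1 and Kdr were above it in every group, with Kdr at 8.71, 8.29, 8.43 and 8.12 in mock, PA, IMQ and IMQ with PA. Of the 7 endothelial markers 2 rose and 2 fell with IMQ, and 2 rose and 2 fell with PA added. Lyve1 read 4.62 in mock and 4.87 with IMQ, both under the level, so its change with IMQ cannot be read. Cdh5 fell with IMQ (-1.18 ± 0.09) and rose with PA added (0.97 ± 0.09), whereas Pecam1 rose (1.29 ± 0.08) and then fell (-0.53 ± 0.08). The summed intensity of the 7 endothelial markers was 609 to 660 in mock, 506 to 542 with PA, 547 to 627 with IMQ and 522 to 537 with both. Of the 7 stromal markers Dcn (3.10 ± 0.14) and Pdgfrb (2.48 ± 0.12) rose with IMQ and fell with PA added, as Marco did, whereas Col1a1, Col1a2 and Col3a1 were not called in either comparison. The summed stromal intensity was 267 to 287, 252 to 267, 655 to 696 and 519 to 543 in mock, PA, IMQ and IMQ with PA. Of 9 neutrophil markers 4 were dim in all groups, Ly6g, Mpo, Ltf and Camp (3.66 in mock, 4.55 with IMQ). With IMQ 2 of the 9 were higher and 2 lower. Their summed intensity was 312 to 334, 280 to 298, 438 to 457 and 450 to 486 in the same order. S100a8, the brightest of them, read 6.40, 6.41, 7.92 and 8.18. S100a9 (5.13, 4.80, 4.42 and 4.20) and Cxcr2 (5.37, 5.08, 4.85 and 4.66) went the other way. The markers above the level of 4.93 numbered 5, 3, 2 and 1. Of 2 erythroid markers measured Klf1 was dim and Epor rose with IMQ (0.21). The part of any of these cells in the receptor results was not tested.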

How the data were processed

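Per the labels' protocols, total RNA of each sample was labelled with biotin and read on Affymetrix arrays of 1 colour. The authors' deposited values are log2 values per probe set, made with RMA from the affy package, per the submitters' processing notes, which give no version. That method subtracts background, equalises the arrays by quantiles, which assumes like distributions in all groups, and summarises probes. The genome build is not given in the sources used here. There were 41345 probe sets, of which 23521 carried 1 symbol, 1814 several and 16010 none in the platform annotation. Only the first kind was used, with the highest-mean probe set per gene. Of the 22180 genes, 21994 were found by gene number in RefSeq, all under the same symbol.

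Group means were fitted with limma 3.58.1 in R 4.3.3 (moderated variances, two-sided tests, 12 residual and 2.96 prior degrees of freedom), with Benjamini-Hochberg adjustment over all genes and no filter. Arrays have no read depth, so their number limits precision. The members, gene lists and motifs were chosen with earlier results of these data known. Text names all 10 members, their 3 likest genes where a change reached 1, and the called extremes, small lists and known partners of each list. Simulated data for 22180 genes held changes of 0.5, 1 and 2 in 67, 67 and 66 genes. These were recovered in 71.6%, 97.0% and 100% of cases for PA versus mock, with 7.25% of calls false. For the interaction they were recovered in 43.3%, 88.1% and 98.5%, with 7.27% false. The simulated spread was equal in all groups, and far fewer genes changed than the 13.6% called for the interaction here. The rates need not hold for these data. Alternatives were repeated quantile normalization, equal array medians, a variance trend with robust moderation, a filter on dim genes, the mean over probe sets, the replicate number as a block, only the arrays compared, each array left out, and the 5 mock and PA arrays with Il6 above 5 left out.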

Additional observations from a re-analysis of the deposited data

Results flagged for a closer look

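The PA change with IMQ differed from the PA change without it, by the interaction term, for 6 genes. The differences on the log2 scale were 1.01 for Olr1, 1.00 for Mrc1, 0.64 for Colec12, -0.59 for Scarb1, -0.75 for Msr1 and -1.40 for Stab1. Of 40 sets of 4 replicates, 2 held an array far from the others, both for Cd68, about as many as the 1 in 20 that chance gives. Cd68 read 11.97 in IMQ replicate 4 against 12.02 to 12.03 in the others of its group, and 12.03 in replicate 2 of IMQ with PA against 12.12 to 12.14.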

How the results depend on the processing

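The count of the 10 genes called with PA alone, 4, was 2 when only the mock and PA arrays were fitted, where 150 of 22180 genes were called. All 4 calls were lost without the 5 arrays with Il6 above 5, as were most calls among all genes. With fewer arrays in that fit the changes of Marco (-0.46), Scarb1 (0.19), Scarb2 (0.31) and Olr1 (0.25) kept their direction. Every other count of calls, under every alternative run, stayed within 1.5 times its main value. Leaving out each array in turn gave 3 to 4 calls for PA alone, 8 to 9 for IMQ alone, 8 for PA added to IMQ, 9 to 10 for IMQ added to PA, 9 for both against mock and 6 for the interaction. Of 1424 single changes, 1389 kept their side of the threshold, 29 lost a call and 6 gained one. Among changes called in either fit 0 reversed, while a change of sign between 2 uncalled values was not counted. Olr1 with PA alone lost its call in 15 of 24 alternatives and Cd163 with IMQ added to PA in 10 of 23, where the cause was not tested. Same-numbered replicates deviated together at over 0.1 in only 4 of 24 pairs, so they were not taken to pair the arrays. As a hint from the data, 8 of 24 correlated best with their own number, among them all 6 pairs of replicate 3. With the replicate number as a block PA alone gave 3 calls, Olr1 being lost, and no other call changed. Cd163 lies below the dim level in all groups, so its changes cannot be read. Cd68, with group means from 12.01 to 12.56, lies in the upper part of the scale, where the highest value was 13.5.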
